A study of Mus musculus with 12 samples.

Results

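Glucocorticoids reach a tumour as hormones from the adrenal gland and are switched on or off again inside tissue before they meet their receptor. The genes described here are 9 of the 35434 in the count table: Hsd11b1 and Hsd11b2, whose enzymes activate and inactivate the hormone, Nr3c1, which encodes the glucocorticoid receptor, and 6 genes that the receptor is known to switch on directly, Fkbp5, Tsc22d3, Zbtb16, Klf9, Sgk1 and Dusp1. They were chosen by name from what is known of the pathway, with earlier results of these data known. Counts of them are therefore described without a set test. All 9 passed the filter on low counts, although Zbtb16, with 3 to 6 counts per library in MC, passed it through the other groups.

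The libraries come from 12 tumours grown under the skin from 4T1 cells, a triple-negative breast cancer line of the mouse, each from 1 female BALB/c mouse (6 to 8 weeks old per the labels). MC mice lived at about 1500 m and received vehicle. MI mice lived there and received IOX2, an inhibitor of the oxygen sensor PHD2, by intraperitoneal injection of 10 mg/kg a day for 10 days from day 9 after the tumour cells were given. HC mice lived in a hypobaric chamber simulating 3500 m and received vehicle, and HI mice lived in the chamber and received the same IOX2 course (n = 3 mice per group). Every group was acclimatized for 3 days, carried the same line under the skin of the back and gave its tumour on study day 22. Effects of simulated altitude and of living in the chamber cannot be told apart, and altitude below stands for both. The deposited tables hold no hormone level, and the labels used here name no hour of collection.

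Corticosterone is the main glucocorticoid of mice. The Hsd11b1 enzyme regenerates it from an inert keto form in liver, fat and connective tissue, with NADPH that H6pd supplies, and the Hsd11b2 enzyme makes the reverse step, best known in kidney. The hormone-bound receptor leaves its chaperones, enters the nucleus and binds paired half-sites in DNA. Among its targets, Fkbp5 encodes a co-chaperone that lowers the receptor's own affinity for hormone. Fkbp5, Tsc22d3 (also called GILZ), Zbtb16 and Per1 are widely read as markers of glucocorticoid exposure in many tissues. Other signals also act on several of these genes: growth factors and osmotic stress on Sgk1, mitogens and stress on Dusp1, and thyroid hormone on Klf9.

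The reference table of RefSeq promoter windows (build GRCm38.p6, 250 bases before to 50 bases after each start) held 6 of the 9 genes, all but Hsd11b2, Nr3c1 and Zbtb16. The count files use GRCm39 per the submitters' processing notes, so these positions apply to the older build only. These 3 windows are shown because they span what was found: a full paired site, a half-site, and neither. Capitals mark matches to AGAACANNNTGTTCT, the palindromic glucocorticoid response element, or to its half-site TGTTCT on either strand.
Sgk1, chr10:21993640-21993939, plus strand: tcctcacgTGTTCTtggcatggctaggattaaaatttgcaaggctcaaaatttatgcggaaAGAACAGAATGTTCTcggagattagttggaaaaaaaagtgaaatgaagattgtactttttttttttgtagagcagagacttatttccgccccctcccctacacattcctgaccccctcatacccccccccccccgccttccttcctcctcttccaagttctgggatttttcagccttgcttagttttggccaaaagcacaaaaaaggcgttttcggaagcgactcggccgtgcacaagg
Tsc22d3, chrX:140600473-140600772, minus strand: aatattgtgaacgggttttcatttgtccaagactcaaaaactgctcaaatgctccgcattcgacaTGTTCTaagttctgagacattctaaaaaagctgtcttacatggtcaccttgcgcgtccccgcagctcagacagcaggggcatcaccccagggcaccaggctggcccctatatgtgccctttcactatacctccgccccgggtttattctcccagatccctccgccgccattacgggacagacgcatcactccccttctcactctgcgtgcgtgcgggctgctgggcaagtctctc
Hsd11b1, chr1:193242311-193242610, minus strand: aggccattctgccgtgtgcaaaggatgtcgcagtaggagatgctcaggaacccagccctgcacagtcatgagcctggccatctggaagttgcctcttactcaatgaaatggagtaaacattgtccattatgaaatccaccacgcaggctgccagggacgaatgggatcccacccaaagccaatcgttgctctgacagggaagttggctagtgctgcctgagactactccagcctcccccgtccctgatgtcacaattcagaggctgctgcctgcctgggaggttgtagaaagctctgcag
The Sgk1 window, 1 of 6 for that gene, holds the full site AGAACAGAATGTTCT with its first base at -189 from the start, and a further half-site at -242. The full site was found in 3 of all 32851 windows, or 0.00913%, and both half-sites in it are counted among the 3 half-sites of the window. Of the 3 Tsc22d3 windows, 1 holds a half-site at -185, and half-sites were found in 19.0% of all windows. The single Hsd11b1, Fkbp5, Klf9 and Dusp1 windows held neither motif. A match is a run of letters in a window, and elements that act on these genes from farther away lie outside it.

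Per length, in FPKM (fragments scaled by gene length and library total, as deposited by the authors), the 9 genes covered a wide range over the 12 libraries. Fkbp5 stood highest, at a mean of 47.8 FPKM (range 34.6 to 81.3), followed by Sgk1 at 26.9 (19.9 to 38.4), Tsc22d3 at 14.6 (10.4 to 24.2), Klf9 at 13.6 (9.60 to 22.3) and Dusp1 at 13.1 (9.45 to 19.6). The receptor gene Nr3c1 averaged 8.38 FPKM (6.54 to 12.2), Hsd11b1 4.67 (1.93 to 10.0), Hsd11b2 3.50 (2.41 to 7.50) and Zbtb16 0.159 (0.00921 to 1.02). Each neighbouring pair in this order overlapped in range, except Hsd11b2 and Zbtb16. All values below are CPM (counts scaled to library size with TMM factors), which compare one gene between libraries.

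Library totals ran from 31661685 (HC1) to 40019343 (MI2) counts, and log2 CPM of any 2 libraries correlated at 0.962 to 0.990. Epithelial markers of the tumour cells were present in every library (Epcam 342 to 605 CPM, Krt8 888 to 1287 CPM). Tissue of the host was present too, in unequal amounts. HC1, HC2 and HI2 had the most RNA of fat-cell markers, at 738, 509 and 419 summed CPM over 12 genes, and HC3 and HI3 were near the MC libraries. Skeletal muscle markers were highest in MI1 (582 summed CPM) and HC1 (419.8). In bulk tumour RNA, a change in how many cells of a type are present and a change in RNA per cell cannot be told apart.

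Hsd11b1, the activating enzyme, rose at altitude. Its levels were 4.73, 4.06 and 3.21 CPM in MC1 to MC3 and 6.26, 3.57 and 3.76 CPM in MI1 to MI3. In the chamber they were 16.0, 9.89 and 8.34 CPM in HC1 to HC3 and 14.1, 10.7 and 7.69 CPM in HI1 to HI3. Each of the 6 chamber tumours was above each of the 6 ambient tumours, the nearest pair being HI3 (7.69) and MI1 (6.26). Averaged over treatment, the log2 change was 1.38 (SE 0.22, 95% interval 0.90 to 1.87), a 2.61-fold difference, with adjusted p = 0.0400 (edgeR quasi-likelihood test, Benjamini-Hochberg over 15269 genes). It was the only 1 of the 9 genes called in that comparison, in which 0.236% of all genes tested were called higher. The groups did not overlap, upward, for 1 of 9 genes here and for 1.05% of all genes.

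Hsd11b1 was higher in the chamber under vehicle and under IOX2. The log2 change was 1.51 in HC against MC (SE 0.32, adjusted p = 0.181) and 1.26 in HI against MI (SE 0.31, adjusted p = 0.190), neither of which passed alone in the main edgeR fit. DESeq2 called both (adjusted p = 0.00105 and 0.0131), and limma-voom called neither (0.259 and 0.243). With the skeletal muscle marker score as a covariate, edgeR called both (0.0466 and 0.0460). The interaction was -0.25 (SE 0.44, 95% interval -1.21 to 0.71, adjusted p = 0.843), an interval wide enough to hold a sizeable difference in either direction. With the replicate number as a block in edgeR, a pairing that no label names, HC against MC gave 1.47 with adjusted p = 0.0223, which passes. For IOX2, the log2 change of Hsd11b1 was 0.18 at ambient altitude and -0.07 in the chamber, and neither passed.

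The rise in Hsd11b1 came beside more fat-cell RNA in some tumours, whose part in it was not tested. Fat-cell scores (the mean over 12 markers of centred log2 CPM) were -0.80, -1.63 and -0.96 in MC1 to MC3, 0.63, -0.47 and -0.58 in MI1 to MI3, 2.16, 1.84 and -0.82 in HC1 to HC3 and 0.65, 1.53 and -1.55 in HI1 to HI3. HC3 and HI3 had scores of -0.82 and -1.55, within or near the MC range, and Hsd11b1 levels of 8.34 and 7.69 CPM, above all ambient tumours. With the score as a covariate the averaged altitude change was 1.05 (adjusted p = 0.129 in edgeR), and without HC1 and HC2, which leaves HC3 alone in its group, it was 1.16. The direction stayed and the call was lost in both. With the skeletal muscle score as a covariate the change was 1.36 and the call held (adjusted p = 0.00435). The call was also lost without any of 8 single libraries (MC1, MC2, MC3, MI3, HC1, HC3, HI1 or HI2), with log2 changes of 1.22 to 1.53 over all 12 omissions.

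**Figure D1:**
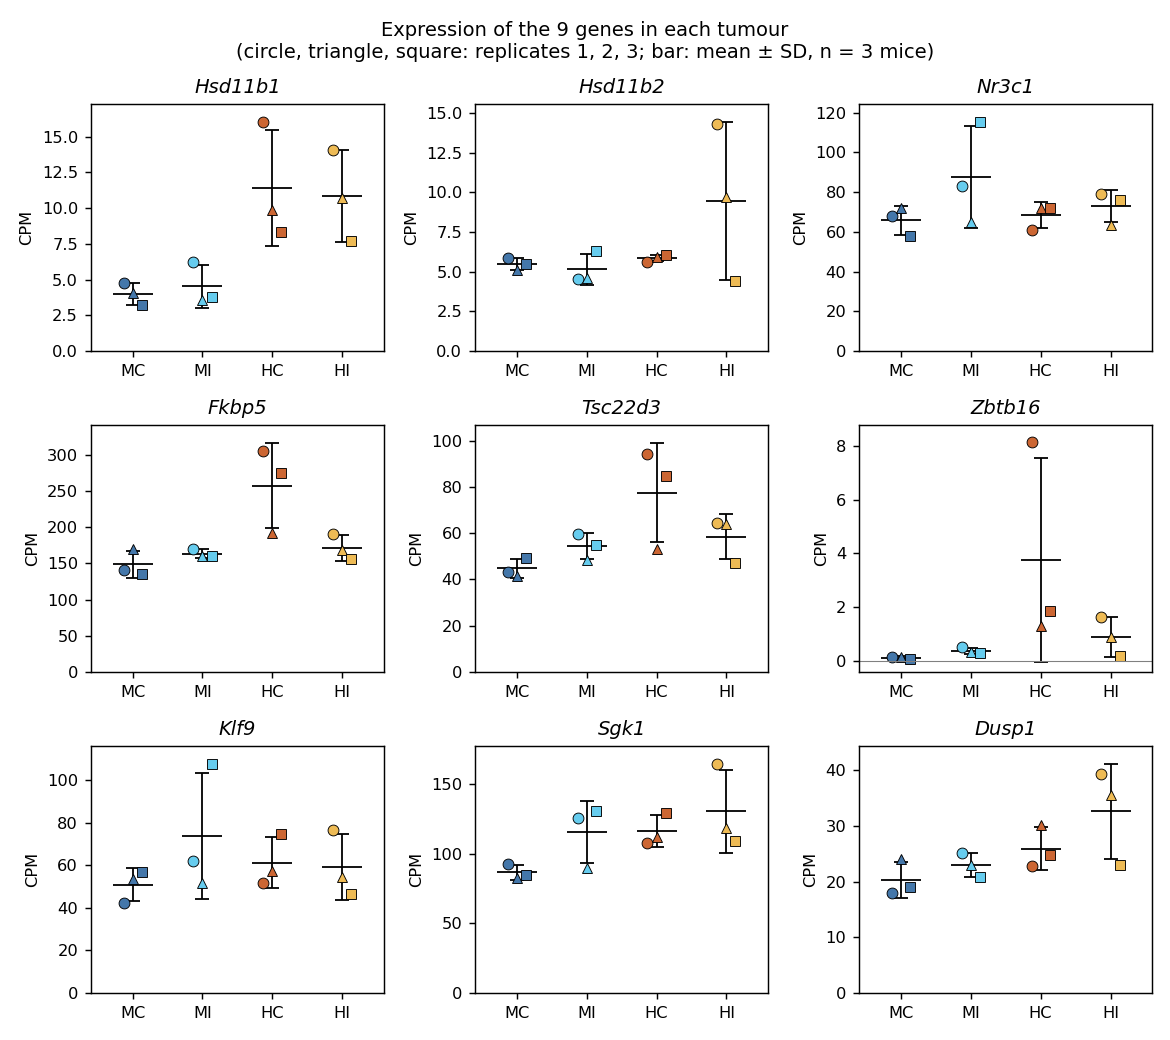
Level of each of the 9 genes in each of the 12 tumours (vertical axes, CPM, each from 0, with a margin below 0 for Zbtb16), by group; points are libraries, and bars are the group mean with its SD. In the Hsd11b1 panel the 6 chamber tumours lie above the 6 ambient tumours, while in the Fkbp5 and Tsc22d3 panels the HC group alone stands apart from MC.

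The inactivating enzyme Hsd11b2 showed no altitude change that passed. Its levels were 5.87, 5.12 and 5.47 CPM in MC1 to MC3, 4.55, 4.61 and 6.27 in MI1 to MI3, 5.63, 5.91 and 6.05 in HC1 to HC3 and 14.3, 9.70 and 4.38 in HI1 to HI3. The 9 tumours of MC, MI and HC lay between 4.55 and 6.27 CPM, with HI1 and HI2 above that range and HI3 just below it. The log2 change was 0.10 in HC against MC and 0.88 in HI against MI (SE 0.32, adjusted p = 0.271 in edgeR), and no comparison passed. The ratio of the 2 enzymes' FPKM, activating over inactivating, was 0.904, 0.888 and 0.656 in MC, 1.54, 0.866 and 0.672 in MI, 3.19, 1.87 and 1.54 in HC and 1.10, 1.24 and 1.97 in HI. It was above 1 in all 6 chamber tumours and in 1 of 6 ambient tumours, MI1. H6pd, which supplies the NADPH that Hsd11b1 uses, had group means of 79.8 ± 7.78 CPM (HC) and 73.6 ± 10.0 CPM (HI) in the chamber, and of 62.8 ± 1.90 (MC) and 66.3 ± 7.95 (MI) outside it (SD, n = 3). Its averaged altitude change was 0.25 (SE 0.08, adjusted p = 0.164 in edgeR), which did not pass.

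Of 18 listed genes of steroid supply and clearance, 11 were tested and none was called in any of the 7 comparisons. In HC against MC, 2 of 11 had an unadjusted p under 0.05 and both were higher, against 6.14% of all genes in that direction: H6pd and Abcb1b, which encodes a pump that exports steroids and drugs (log2 0.79, SE 0.25, adjusted p = 0.270 in edgeR). The list's median log2 change there was 0.00, against -0.01 for all genes. Akr1c18, a hydroxysteroid dehydrogenase gene, had log2 -1.22 in HI against MI (adjusted p = 0.269), and Nr5a2, a nuclear receptor gene that drives steroid synthesis in the gut, -1.10 in the altitude average (adjusted p = 0.142). Hsd3b1, a synthesis enzyme, and Serpina6, the carrier of corticosterone in plasma, had 0 counts in every library, against a limit of 3 counts per library that a count of 0 allows. Both were chosen after their values were seen, and Cyp11a1, Cyp21a1 and Star of the same list passed the filter on low counts.

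The receptor gene Nr3c1 showed no altitude change that passed. It was at 67.8, 72.0 and 57.7 CPM in MC1 to MC3, 82.9, 64.8 and 115 in MI1 to MI3, 60.7, 71.9 and 72.2 in HC1 to HC3 and 79.0, 63.6 and 76.1 in HI1 to HI3. The groups overlapped throughout, and MI3 alone exceeded 100 CPM. The averaged altitude change was -0.11 (95% interval -0.38 to 0.17), which leaves room for a modest change in either direction. MI against MC gave 0.41 (SE 0.18, adjusted p = 0.492 in edgeR). Nr3c2, the mineralocorticoid receptor gene, whose protein also binds corticosterone, was scarce, with means of 1.04 ± 0.558 (HC), 0.781 ± 0.326 (HI), 2.19 ± 0.488 (MC) and 1.74 ± 0.963 CPM (MI; SD, n = 3), with an averaged log2 change of -1.12 (adjusted p = 0.150).

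Chaperones and coregulators of the receptor stayed close to the bulk of all genes. None of the 26 listed genes, all tested, was called in any comparison, and their median was 0.01 in HC against MC and 0.00 in the altitude average. Ncoa3, a coactivator of nuclear receptors, came nearest: each chamber tumour was below each ambient tumour, with log2 -0.24 (SE 0.06, adjusted p = 0.0776 in edgeR). Hsp90aa1, which encodes the chaperone that holds the receptor ready for hormone, had an interaction of -0.41 (adjusted p = 0.596). Stub1, a ligase that marks chaperone clients for destruction, had -0.24 in MI against MC (adjusted p = 0.492).

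Among vehicle-treated mice, 5 of the 9 genes had every HC tumour above every MC tumour: Hsd11b1, Fkbp5, Tsc22d3, Zbtb16 and Sgk1. Over all genes tested, 10.3% separated upward in this way. The same 5 had an unadjusted p under 0.05 in edgeR, against 6.14% of all genes in that direction. All 9 had a log2 change above 0, with a median of 0.42 against -0.01 for all genes. In 25 alternative fits, Hsd11b1, Fkbp5, Tsc22d3 and Zbtb16 had an unadjusted p under 0.05 in each, and Sgk1 in 21. These fits share the same tumours and are not independent of each other. Those without an MI or HI tumour leave HC and MC whole. None of the 9 genes was called after adjustment in the main edgeR fit, nor was any other gene in this comparison (0% of 15269, against 314 genes called by DESeq2). The DESeq2 calls included Hsd11b1, Fkbp5, Tsc22d3 and Zbtb16. Same-numbered HC and MC tumours deviated together, although no label names a pairing. With that number as a block 13 genes were called, Hsd11b1 and Zbtb16 among them. The block was fitted over all groups, also MI and HI, whose numbers no label pairs with the other groups either.

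Fkbp5, the co-chaperone gene, was at 140.3, 169.8 and 136 CPM in MC1 to MC3 and 306, 192 and 275 CPM in HC1 to HC3. HC1 and HC3 stood well above the rest, and HC2 was 192 against 169.8 in the highest MC tumour. The log2 change was 0.79 (SE 0.16, 95% interval 0.45 to 1.13), a 1.73-fold difference, with adjusted p = 0.156 in edgeR. DESeq2 called it, with adjusted p = 0.000824.

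Tsc22d3 encodes GILZ, a leucine-zipper protein that restrains inflammatory signalling. It was at 43.1, 41.7 and 49.5 CPM in MC1 to MC3 and 94.4, 53.4 and 84.9 CPM in HC1 to HC3. As for Fkbp5, HC1 and HC3 were high and HC2 was close to the highest MC tumour. The log2 change was 0.79 (SE 0.19, adjusted p = 0.217 in edgeR, and 0.0121 in DESeq2).

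Zbtb16, a zinc-finger transcription factor gene that is nearly silent in many tissues without hormone, had the largest log2 change of the 9 and the fewest counts. The raw counts were 6, 6 and 3 in MC1 to MC3, 20, 14 and 10 in MI1 to MI3, 266, 51 and 72 in HC1 to HC3 and 63, 36 and 7 in HI1 to HI3. HC1 held most of the counts of its group, and at 8.13 CPM it was several times above HC2 (1.29) and HC3 (1.87). All 3 still lay above all MC tumours, which held 0.0763 to 0.151 CPM. The MC group summed to 15 counts, with an exact Poisson 95% interval of 8.40 to 24.7 that covers counting error only. The log2 change was 4.86 (SE 0.92, 95% interval 2.84 to 6.87, adjusted p = 0.156 in edgeR). DESeq2 called it, with adjusted p = 1.9e-05, and limma-voom did not (0.299). With the replicate block in edgeR, a pairing that no label names, it was 4.62 with adjusted p = 0.0462, which passes.

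Sgk1, Dusp1 and Klf9 differed less. Sgk1, a kinase gene of salt transport and cell survival, was at 92.6, 82.6 and 84.7 CPM in MC1 to MC3 and 108, 112 and 129 CPM in HC1 to HC3, a log2 change of 0.42 (SE 0.17, adjusted p = 0.355 in edgeR). Every HC tumour was above every MC tumour. A promoter window of Sgk1 holds the full paired site shown above, while the Fkbp5 and Hsd11b1 windows held neither motif. The part of such sites in these values was not tested. Dusp1, which encodes a phosphatase that switches off MAP kinases, was at 18.0, 23.9974 and 19.0 CPM in MC and 22.8, 30.2 and 24.8 CPM in HC, with HC1 below MC2 (log2 0.35, adjusted p = 0.499). Klf9, a Kruppel-like transcription factor gene, was at 42.2, 53.8 and 56.7 CPM in MC and 51.6, 57.6 and 74.6 CPM in HC, and the groups overlapped (log2 0.27, adjusted p = 0.758). Immediate-early genes, which share the fast inducers of Dusp1 and Sgk1, had 14 of 14 log2 changes above 0 in the same comparison, with a median of 0.26; their part in these values was not tested.

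**Figure D2:**
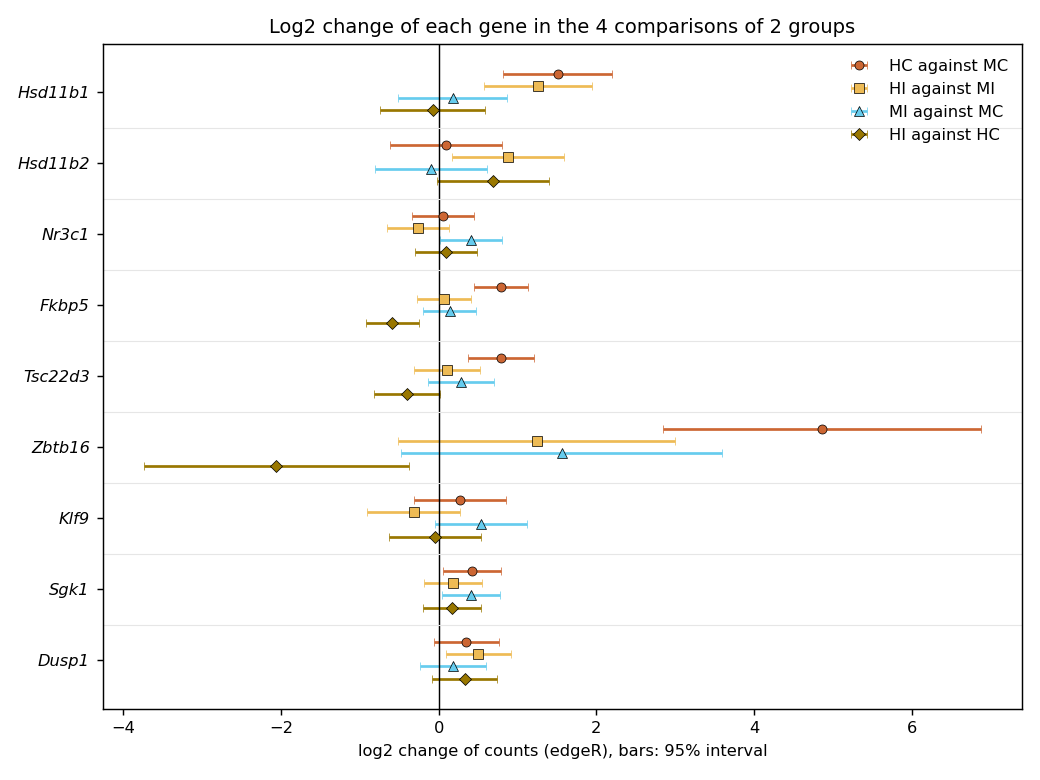
Log2 change of each of the 9 genes in the 4 comparisons of 2 groups (horizontal axis), with 95% intervals of the edgeR fit; the vertical line marks no change. The intervals of Hsd11b1, Fkbp5, Tsc22d3, Zbtb16 and Sgk1 lie above 0 in HC against MC, and in HI against MI those of Fkbp5, Tsc22d3, Zbtb16 and Sgk1 include 0.

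In mice given IOX2, 7 of the 9 genes had a log2 change above 0 at altitude, with a median of 0.18. In HI against MI, Hsd11b1, Hsd11b2 and Dusp1, 3 of the 9, were higher at an unadjusted p under 0.05, against 6.77% of all genes in that direction. Hsd11b1, 1 of the 9, separated upward without overlap, against 8.02% of all genes, and none was called in the main edgeR fit (0% of all genes, against 381 genes in DESeq2). The DESeq2 calls included Hsd11b1 (adjusted p = 0.0131). Dusp1 was at 25.2, 23.0 and 20.8 CPM in MI1 to MI3 and 39.3, 35.6 and 23.1 CPM in HI1 to HI3, where HI3 lay within the MI range (log2 0.50, SE 0.19, adjusted p = 0.276 in edgeR). Fkbp5 was at 170.4, 161 and 159.7 CPM in MI and 191, 168 and 156 CPM in HI. Its log2 change was 0.07 (95% interval -0.27 to 0.41), and the groups overlapped. Tsc22d3 was at 59.9, 48.6 and 54.9 CPM in MI and 64.5, 64.0 and 47.2 CPM in HI, a log2 change of 0.11 (95% interval -0.31 to 0.52). Zbtb16 overlapped between HI and MI, with a log2 change of 1.24 (SE 0.80, 95% interval -0.52 to 3.00, adjusted p = 0.451 in edgeR) that was 0.49 without HI1. Sgk1 and Klf9 overlapped between HI and MI, with log2 changes of 0.18 and -0.32.

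The difference between the 2 altitude effects was tested as an interaction. Fkbp5 (-0.73, SE 0.22), Tsc22d3 (-0.69, SE 0.27) and Zbtb16 (-3.62, SE 1.20) had an unadjusted p under 0.05 in edgeR, all toward a smaller altitude change with IOX2. That is 3 of 9, against 4.17% of all genes in that direction, and each had adjusted p = 0.596, so that none passed (0% of all genes were called in edgeR, and 32 genes in DESeq2). Without HC1 the Zbtb16 interaction was -2.37, and without HC1 and HC2, which leaves HC3 alone in its group, it was -2.63. Some marker lists of host tissue moved the same way. In the interaction, 12 of 12 fat-cell markers (median -2.07) and 12 of 12 endothelial markers (median -0.61) were below 0. Of these, 1 and 6 had an unadjusted p under 0.05 in edgeR, against 4.17% of all genes. Of 12 tumour epithelium markers, 9 were above 0. The part of host tissue was not tested.

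Inside the chamber, Fkbp5 was lower in every IOX2-treated tumour than in every vehicle tumour, without a call. The highest HI tumour was HI1 at 191.1 CPM and the lowest HC tumour HC2 at 191.5 CPM, so that the groups separated by a small margin. The log2 change was -0.59 (SE 0.15, adjusted p = 0.964 in edgeR). Fkbp5 was the 1 gene of 9 that separated downward, against 5.61% of all genes, and Fkbp5 and Zbtb16 (-2.06, SE 0.77) were the 2 of 9 with an unadjusted p under 0.05, against 2.51% of all genes in that direction. Without HC1 the Zbtb16 change was -0.81, and without HC1 and HC2, which leaves HC3 alone in its group, it was -1.06. Tsc22d3 had log2 -0.40 (SE 0.19, adjusted p = 0.964), with the groups overlapping. None of the 9 and no other gene was called in edgeR (0%), against 22 genes in DESeq2. These values share the HC libraries with the comparison of HC and MC, so the same 3 high or uneven HC tumours enter both. In HI against HC, 12 of 12 fat-cell markers (median -0.83) and 12 of 12 endothelial markers (median -0.46) were below 0. No fat-cell marker and 7 endothelial markers had an unadjusted p under 0.05 in edgeR. Of 11 tested T and NK cell markers, 10 were above 0. The part of host tissue here was not tested.

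At ambient altitude, 8 of the 9 genes had a log2 change above 0 with IOX2, and none passed. Sgk1 was at 126, 89.8 and 131 CPM in MI1 to MI3 (log2 0.42 against MC, SE 0.17, adjusted p = 0.492 in edgeR), and MI2 overlapped the MC range. Sgk1 and Nr3c1 were the 2 of 9 genes with an unadjusted p under 0.05, against 5.61% of all genes in that direction. Zbtb16 alone separated upward (0.509, 0.340 and 0.285 CPM in MI, log2 1.56, SE 0.93, adjusted p = 0.507), against 4.75% of all genes. None of the 9 was called, against 0.0262% of all genes. Klf9 in MI3 reached 108 CPM, the highest value of that gene, in the same library in which Nr3c1 peaked (115 CPM). Averaged over altitude, the IOX2 change of Sgk1 was 0.29 (adjusted p = 0.759 in edgeR), the 1 of 9 with an unadjusted p under 0.05, against 2.7% of all genes in that direction. None was called, against 0.0393% of all genes.

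Averaged over treatment, 6 of the 9 genes had an unadjusted p under 0.05 for altitude, all higher, against 8.64% of all genes in that direction. They were Hsd11b1, Zbtb16 (log2 3.05, SE 0.61, adjusted p = 0.0586), Fkbp5 (0.43, SE 0.11, adjusted p = 0.0940), Tsc22d3 (0.45, adjusted p = 0.138), Dusp1 (0.43, adjusted p = 0.150) and Sgk1 (0.30, adjusted p = 0.227), with edgeR. For Dusp1 the average rests on both treatments, and for Fkbp5 and Tsc22d3 mainly on the vehicle-treated mice. Klf9 (-0.03) and Nr3c1 (-0.11) were near 0 with opposite signs for the 2 treatments.

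A list of 50 other genes that glucocorticoids are known to induce was read beside the members, and 49 of them were tested. The list too was chosen with earlier results of these data known. In HC against MC, 23 (higher) and 3 (lower) had an unadjusted p under 0.05 in edgeR, against 6.14% and 5.84% of all genes, and 23 separated upward without overlap, against 10.3% of all genes. Their median log2 change was 0.44 against -0.01 for all genes, and none was called. Mertk, a receptor by which macrophages take up dead cells, was at 8.92, 9.69 and 7.89 CPM in MC1 to MC3 and 27.9, 14.8 and 20.9 CPM in HC1 to HC3 (log2 1.26, SE 0.23, adjusted p = 0.156). Of the 12 macrophage markers, 10 were below 0. Zfp36, whose protein speeds the decay of inflammatory mRNA, had 0.46 (adjusted p = 0.203).

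Per1, Mt2, Klf15 and Slc10a6 were chosen after their values were seen. All are among the 34 of 49 genes with a log2 change above 0 in HC against MC, and 15 were below 0. Per1, a clock gene and a direct receptor target, was at 23.3, 23.4 and 34.0 CPM in MC and 49.7, 36.9 and 61.4 CPM in HC (log2 0.87, adjusted p = 0.216 in edgeR). Mt2, a metallothionein gene, was at 86.6, 125 and 86.5 CPM in MC and 179, 169 and 298 CPM in HC (1.12, adjusted p = 0.231). Both separated fully between the groups. Klf15, a metabolic transcription factor gene, and Slc10a6, a transporter of sulphated steroids, had 2.76 and 2.80 at low levels. Ddit4, a brake on mTOR that hypoxia also induces, ran against the list, at -0.26 (SE 0.11) with every HC tumour below every MC tumour.

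The same list was counted in the other comparisons. In HI against MI, 6 (higher) and 4 (lower) had an unadjusted p under 0.05, against 6.77% and 8.43% of all genes, with a median of 0.18. Ddit4 was among the higher ones there (log2 0.63, SE 0.11, adjusted p = 0.0903 in edgeR), with 142, 167 and 145 CPM in MI and 257, 240.1 and 205 CPM in HI. In HI against HC, 33 of 49 log2 changes were below 0 (median -0.08), and in the interaction 7 (lower) and 1 (higher) had an unadjusted p under 0.05, against 4.17% and 4.04% of all genes. In the altitude average, 29 were higher and 4 lower, against 8.64% and 8.65%, and none was called. Nfkbia, which encodes the inhibitor that holds NF-kB in the cytoplasm, had 0.61 (SE 0.14, adjusted p = 0.0769).

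**Figure D3:**
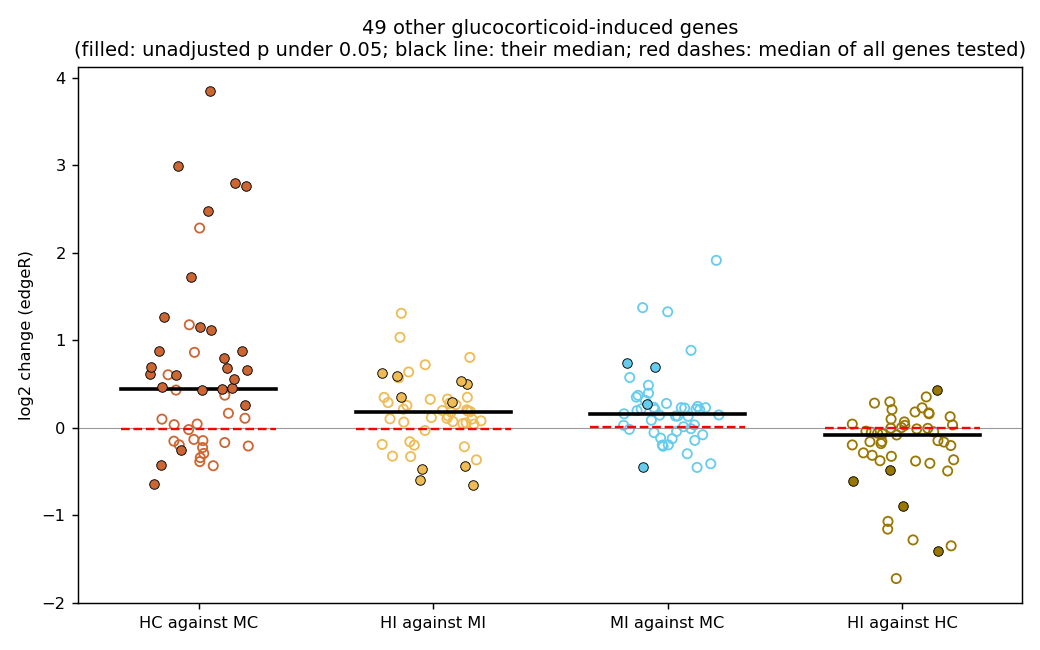
Log2 change of the 49 tested other induced genes in the 4 comparisons of 2 groups (vertical axis, 1 point per gene, filled where the unadjusted p was under 0.05); black bars mark the median of the list and red dashes the median of all 15269 genes tested. In HC against MC the list's median is 0.44 and that of all genes -0.01, and in HI against HC they are -0.08 and 0.00.

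Genes that glucocorticoids are known to hold down, cytokines, chemokines, proteases and costimulatory molecules, were not lower as a list. Of 30 genes, all tested, 10 (higher) and 2 (lower) had an unadjusted p under 0.05 in the altitude average, against 8.64% and 8.65% of all genes, with a median of 0.22, and 2 were called in each direction (background 0.236% higher and 0.262% lower). Cxcl1, a neutrophil attractant, rose: it was at 8.74, 9.16 and 8.68 CPM in MC, 10.7, 12.6 and 13.2 in MI, 19.4, 24.9 and 44.3 in HC and 55.9, 22.1 and 33.6 in HI (log2 1.67, SE 0.24, adjusted p = 0.0257 in edgeR). The matrix protease gene Mmp3 also rose (0.95, SE 0.17, adjusted p = 0.0445). Cd86, a costimulatory molecule of antigen-presenting cells, fell: its means were 10.2 ± 1.95 (HC) and 11.2 ± 2.29 CPM (HI) against 15.9 ± 1.56 (MC) and 18.0 ± 1.19 CPM (MI; SD, n = 3; log2 -0.66, SE 0.12, adjusted p = 0.0436). Il12b, a cytokine subunit of the same cells, fell from a low level, with raw counts of 48, 23 and 48 in MC and 0, 6 and 3 in HC (adjusted p = 0.0412 in the average). For these 4 genes the chamber and ambient tumours did not overlap, except for Mmp3. Without HC1 and HC2 none of the 4 was called (adjusted p = 0.0550 for Cxcl1 and Mmp3, 0.180 for Cd86 and 0.155 for Il12b), and with the fat-cell score as a covariate only Cxcl1 was (0.0402), all 4 keeping their direction. Each call was also lost without any 1 of several libraries, among them each MC library. With limma-voom none of the 4 was called (adjusted p = 0.0526 to 0.0568). With limma on log2(FPKM + 1) only Cxcl1 was (0.0455), and DESeq2 called all 4. Cd86 was also not called in edgeR with library totals without TMM (0.0519) or in limma on log2(FPKM + 0.1) (0.0531). Macrophage markers, of which 10 of 12 were below 0 in the same average (7 of 12 at an unadjusted p under 0.05, median -0.28, none called), moved with Cd86 and Il12b, and their part in these values was not tested.

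Fat-cell RNA followed the response genes in some tumours and not in others. In HC against MC, 12 of 12 fat-cell markers had a log2 change above 0 (median 2.83, none called). Of these, 11 had an unadjusted p under 0.05 in edgeR, against 6.14% of all genes in that direction. In the altitude average 11 of 12 did too, against 8.64% of all genes. HC1, with the highest fat-cell score, also had the highest Fkbp5, Tsc22d3 and Zbtb16. HC3, with a score of -0.82 inside the MC range, held 275 CPM of Fkbp5, 84.9 of Tsc22d3 and 1.87 of Zbtb16, above all MC tumours. HC3 also had the most RNA of skin and hair markers of all tumours, at 16.6 summed CPM, followed by HI1 at 14.1. MC1 to MC3 had 9.07, 7.39 and 8.96, and the part of skin was not tested. HC2, with a score of 1.84, had the lowest Fkbp5, Tsc22d3 and Zbtb16 of its group. Without HC1 and HC2, which leaves HC3 alone and assumes that it varies like the other groups, the log2 change of HC against MC was 0.90 for Fkbp5, 0.93 for Tsc22d3, 3.86 for Zbtb16, 0.59 for Sgk1 and 1.07 for Hsd11b1. With the score as a covariate these were 0.79, 0.67, 3.36, 0.40 and 0.92.

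The count of other induced genes was smaller in both of these fits. Of 49, 11 were higher at an unadjusted p under 0.05 with the fat-cell score as a covariate (22.4%, against 2.06% of all genes), and 16 of 50 without HC1 and HC2 (32%, against 2.90%). Of the neutrophil markers, 10 of 12 were above 0 in HC against MC (median 1.13), with scores of -0.76, 0.70 and 1.05 in HC1 to HC3 against -0.56, -0.24 and -0.60 in MC1 to MC3. HC1 had the lowest neutrophil score of all 12 tumours and the highest Fkbp5 and Tsc22d3. Il1r2 stands in both lists, and the part of neutrophils in the counts was not tested.

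**Figure D4:**
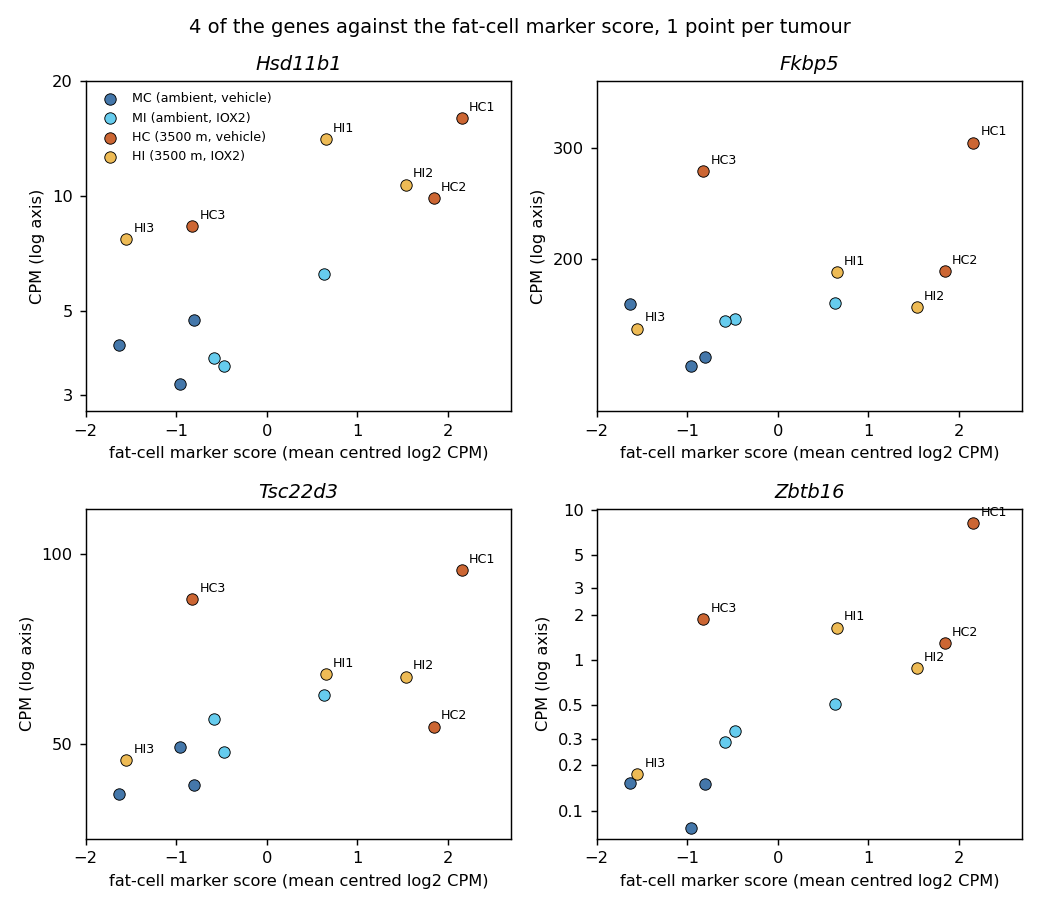
Level of Hsd11b1, Fkbp5, Tsc22d3 and Zbtb16 (vertical axes, CPM on a log scale) against the fat-cell marker score (horizontal axes, mean centred log2 CPM of 12 markers), 1 point per tumour, coloured by group, with the chamber tumours labelled. HC3 lies at a score of -0.82 among the ambient tumours and above all MC tumours in each panel.

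Genes whose levels ran most like each member over the 12 libraries are given as a description, from 10838 candidates at a mean of at least 5 CPM; the points share group, host tissue and scaling. For Hsd11b1 they were Mrgpre (Pearson r 0.94), the urokinase gene Plau (0.93) and Tmem109 (0.93). Fkbp5 ran with Adamtsl4, Map3k6 and Polr3g (0.92 each), Tsc22d3 with Hhipl1 (0.93), Lpin3 (0.90) and Polr3g (0.89), and Zbtb16 with Sh2d5 (0.94), Adamtsl4 (0.94) and Rtn4rl2 (0.93). Adamtsl4 was thus close to both Fkbp5 and Zbtb16, and Polr3g to both Fkbp5 and Tsc22d3. The other members ran closest to genes of their own: Nr3c1 to Fbxl5 (0.99), Klf9 to Smndc1 (0.94), Sgk1 to Odaph (0.93), Dusp1 to Gsr (0.93) and Hsd11b2 to Rbm3 (0.93). Of the deviations from the group means, Hsd11b1 ran closest to Fstl1 (0.97) and Tnni2 (0.97), the second a skeletal muscle gene, and Zbtb16 to Ndrg2 (0.94). Strand use in counting is not given in the sources used here, so reads of Fkbp5, Zbtb16, Klf9 and Sgk1 cannot be told apart from those of the annotated genes that overlap them (Gm22146, Gm32280, Mir1192, and Gm46215 with Gm18511).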

How the data were processed

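RNA of 12 whole tumours gave 1 library each, read from both ends over 150 bases. HISAT2 2.1.0, HTSeq 0.11.2, fastp 0.20.1, R 3.5.1 and DESeq2 1.22.2 are named, beside build GRCm39, per the submitters' processing notes. Annotation and strand setting were not given in the sources used here, and a stranded count could move reads between overlapping genes. The authors deposited raw counts per gene for 35434 genes and FPKM values for the same genes. The gene length that each FPKM value implies was whole within 0.01 base for 100% of values.

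The main test was the quasi-likelihood fit of edgeR 4.0.16 (R 4.3.3), with TMM scaling, on the 15269 genes that filterByExpr kept. All 12 libraries entered 1 fit with a mean for each group, and a gene was called when its p, adjusted by Benjamini-Hochberg over every tested gene, was under 0.05. Group values are mean ± SD over 3 mice. The 7 comparisons are the 4 between groups, the interaction (HI minus HC, less MI minus MC) and both averages. A count of 0 allows up to 3 counts, 0.0728 to 0.0917 CPM per library, for counting error only. An exact test of 3 mice against 3 could not go below p = 0.1.

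The 9 genes, the other lists and the marker lists were chosen with earlier results of these data known, so lists are described by counts and medians without a set test. From each of the 4 other glucocorticoid lists, up to 4 genes with the smallest p in any comparison are named, plus called genes; Per1, Mt2, Klf15 and Slc10a6 (induced list) and Hsd3b1 and Serpina6 (steroid list) were added after their values were seen. Likeness is the highest Pearson r of log2 CPM (prior count 2). Deviations from the group mean correlated at 0.278, 0.153 and 0.209 between HC and MC tumours that share a number. No label names a pairing, and these values do not show one. The replicate block was fitted over all 12 libraries, although these correlations were smaller or of mixed sign outside HC against MC. Scripts were tested on simulated data. Alternatives were DESeq2 1.42.0, DESeq2 size factors, library totals without TMM, other filters, limma-voom and limma 3.58.1 on log2(FPKM + 0.1) and log2(FPKM + 1), the replicate block, fits of 2 groups, and omission of each library. Chosen after seeing the data were omission of HC1 with HC2, and fat-cell or skeletal muscle scores as covariates.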

Additional observations from a re-analysis of the deposited data

Results flagged for a closer look

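Among 125 tested genes of the 9 members and the 4 other glucocorticoid lists, 3 moved in opposite directions under IOX2 at the 2 altitudes, with every treated tumour on one side of every vehicle tumour each time. How many of all genes tested met the same rule was not counted, so whether 3 of 125 is more than usual is not known. For none of the 3 did the interaction pass after adjustment in edgeR (adjusted p = 0.596 for each). Ddit4, the mTOR brake, was lower with IOX2 at ambient altitude (log2 -0.45, SE 0.11) and higher with it in the chamber (0.43, SE 0.11), an interaction of 0.89 (SE 0.15). Mertk, the uptake receptor of macrophages, was higher with IOX2 at ambient altitude (0.74, SE 0.23) and lower with it in the chamber (-0.89, SE 0.23), an interaction of -1.63 (SE 0.33). Hsp90aa1, the chaperone gene, was higher at ambient altitude (0.25, SE 0.11) and lower in the chamber (-0.17, SE 0.11), an interaction of -0.41 (SE 0.15). No value was checked for an outlying tumour, since groups of 3 are too small for that test.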

How the results depend on the processing

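Of 63 log2 changes of the 9 genes (9 in each of 7 comparisons), the alternatives gave 1548 values. Of these, 1475 kept direction and side of the threshold, 41 changed sign, 20 newly passed and 12 no longer passed. Those 12 are all the altitude average of Hsd11b1: limma-voom (adjusted p = 0.0526), limma on log2(FPKM + 1) (adjusted p = 0.0553), and the omissions and the fat-cell covariate given above. It held under DESeq2, DESeq2 size factors, library totals without TMM, no filter, a filter of 1 CPM, log2(FPKM + 0.1), the replicate block, the muscle covariate and omission of MI1, MI2, HC2 or HI3. The alternatives in which a further result of a member passed were DESeq2, the replicate block, no filter, the muscle covariate and omission of HC2 or HI3: without HI3, Hsd11b2, Dusp1 and Zbtb16 passed in the altitude average, and without HC2, Fkbp5 and Zbtb16 did.

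Counts of called genes depended on the test. The edgeR counts were 0 for HC against MC, 0 for HI against MI, 4 for MI against MC, 0 for HI against HC, 0 for the interaction, 76 for the altitude average and 6 for the IOX2 average. DESeq2 called 314, 381, 20, 22, 32, 866 and 11 genes in that order. Without a filter on low counts the calls were 2 for HC against MC, 16 for HI against MI and 166 for the altitude average. For HI against MI, DESeq2 size factors in edgeR gave 1 call and a filter of 1 CPM gave 2. With limma-voom, MI against MC had 0 calls and the altitude average 20, and limma on log2(FPKM + 1) gave 14 for that average. Fits of only the 2 groups compared gave 63 calls for HC against MC and 2 for MI against MC. With the fat-cell covariate, MI against MC had 1 call, the altitude average 3, and 11 other induced genes were higher at an unadjusted p under 0.05 in HC against MC. With the muscle covariate the calls were 3 for HC against MC, 7 for HI against MI and 137 for the altitude average. Without HC1 and HC2 they were 0 for the altitude average and 2 for the IOX2 average. The cause of these differences was not tested.

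The replicate block gave 13 calls for HC against MC, 3 for HI against HC and 155 for the altitude average. Beside Hsd11b1 and Zbtb16 in HC against MC, it moved Zbtb16 past the threshold in the altitude average (adjusted p = 0.0301), and no other member call changed with it. Outside HC against MC, correlations of same-numbered deviations were smaller or of mixed sign. They were 0.257, 0.0717 and 0.131 for HI and MI, 0.313, -0.0904 and -0.104 for MI and MC, and -0.0208, -0.0745 and 0.244 for HI and HC.

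Leaving out 1 library at a time, calls ranged over 0 to 40 for HC against MC (the highest without HI1), 0 to 520 for HI against MI (the highest without MI2), 0 to 6 for MI against MC, 0 to 2 for the interaction (the highest without MI2) and 2 to 339 for the altitude average (the highest without HI3).

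Sign changes were found only in values that were not called. With the fat-cell covariate, log2 changes were -0.21 for Hsd11b2 in HC against MC, -0.10 for Hsd11b1 in MI against MC, 0.15 for it in HI against HC, 0.25 for its interaction and 0.062 for Klf9 in the altitude average. Without HC1 and HC2 they were 0.37 for Hsd11b1 in HI against HC, 0.18 for its interaction, 0.11 for Klf9 in the altitude average and 0.25 for Zbtb16 in the IOX2 average. The Klf9 altitude average was 0.0016 with log2(FPKM + 0.1), 5.7e-05 with log2(FPKM + 1) and 0.00046 with the block, and the IOX2 average of Hsd11b1 was -0.013 with the muscle covariate.

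Over the 12 omissions, values that crossed 0 were as follows. In HC against MC, Nr3c1 ran from -0.035 to 0.13. In HI against MI, Fkbp5 ran from -0.015 to 0.13, Klf9 from -0.55 to 0.051 and Sgk1 from -0.020 to 0.29. In MI against MC, Hsd11b1 ran from -0.11 to 0.32 and Hsd11b2 from -0.25 to 0.0035. In HI against HC, Hsd11b1 ran from -0.31 to 0.25, Klf9 from -0.28 to 0.12 and Sgk1 from -0.031 to 0.28. For the interaction, Hsd11b1 ran from -0.49 to 0.071 and Dusp1 from -0.00087 to 0.35. In the altitude average, Nr3c1 ran from -0.19 to 0.018 and Klf9 from -0.14 to 0.16, and in the IOX2 average Hsd11b1 from -0.10 to 0.21, Tsc22d3 from -0.17 to 0.021 and Zbtb16 from -0.63 to 0.37.

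Depth limits Zbtb16 most, which held 3 to 6 counts per MC library. With 3 tumours per group, an interval that includes 0 does not show that a gene stayed level. The 3 HC tumours are uneven in fat-cell RNA and enter every altitude value under vehicle.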
